A study of Mus musculus with 19 samples.

Results

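The 9 genes described here encode the enzymes by which the small intestine turns glutamine, glutamate and proline into citrulline and arginine: *Cps1*, *Otc*, *Ass1*, *Asl*, *Arg2*, *Nags*, *Aldh18a1*, *Oat* and *Prodh*. They were chosen by name, for their places in this route, from the 55487 genes in the files, and all 9 were among the 17875 genes with enough counts to be tested. RNA was sequenced from isolated small intestinal crypts of 19 C57BL/6 mice, 1 library per mouse, after ribosomal RNA was removed. Of the mice fed ad libitum (AL), 5 were NT+/+ and 4 were NT-/-, and of those fasted for 48 hours, with water, 5 were of each genotype. NT-/- mice lack neurotensin, a peptide hormone of intestinal endocrine cells. The study describes its NT+/+ and NT-/- mice as both carrying Lgr5-EGFP. Fasted and fed mice were sex- and age-matched littermates of both sexes, and mice aged 10 to 16 weeks were used in the fasting studies. By the study's methods, crypts came from the proximal part of the small intestine and not its distal end. The paper places neurotensin mainly in the distal small intestine. Comparing diets within each genotype, and genotypes within each diet, asks how nutrient state and neurotensin bear on these crypts.

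In the small intestine, glutamine is the main fuel of enterocytes and also a source of nitrogen and carbon for citrulline, which is released to the blood and turned into arginine by the kidney. Inside mitochondria, carbamoyl phosphate synthetase 1, the product of *Cps1*, joins ammonia to bicarbonate once it is activated by N-acetylglutamate, which the product of *Nags* makes. Ornithine transcarbamylase, from *Otc*, then joins carbamoyl phosphate to ornithine to give citrulline. The ornithine comes from pyrroline-5-carboxylate, which *Aldh18a1* makes from glutamate and *Prodh* makes from proline, and which *Oat* interconverts with ornithine. In the cytosol the products of *Ass1* and *Asl* convert citrulline to arginine, and the mitochondrial arginase of *Arg2* splits arginine into ornithine and urea.

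Promoter windows of RefSeq (build GRCm38.p6, 250 bases before to 50 after the annotated start) were matched for 6 of the 9 genes. The bases upstream of any annotated exon are shown for *Ass1* and *Otc*, which encode the enzymes that make and use citrulline. The *Ass1* stretch is chr2:31470020-31470206 and the *Otc* stretch is chrX:10252055-10252229, both on the plus strand.
Ass1: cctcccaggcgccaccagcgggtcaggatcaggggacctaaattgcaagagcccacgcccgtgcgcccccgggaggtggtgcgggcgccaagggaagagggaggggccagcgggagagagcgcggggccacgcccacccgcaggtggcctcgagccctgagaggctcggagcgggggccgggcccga
Otc: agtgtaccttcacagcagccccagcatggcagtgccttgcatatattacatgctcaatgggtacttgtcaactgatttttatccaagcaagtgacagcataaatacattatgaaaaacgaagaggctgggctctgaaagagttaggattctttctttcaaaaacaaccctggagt
The stretches differ in base composition, and the whole 300-base windows were 74% GC for *Ass1* and 44.3% GC for *Otc*, against a median of 52.7% over all 32851 windows. On both strands of the whole windows, the GC box GGGCGG was in 4 of the 6 windows (*Ass1*, *Oat*, *Nags* and *Aldh18a1*) and in 35.7% of all windows. The E-box CACGTG was in 2 (*Ass1* and *Aldh18a1*) and in 7.15% of all windows, and the CCAAT box CCAAT was in 1 (*Oat*) and in 37.4% of all windows. No window of the 6 held TGACGTCA (in 1.79% of all windows), TTGCNNAA (10.8%), the nuclear receptor element DR1 (0.0396%) or TATAAA (13.6%). The stretches shown have no capitals because none of the motifs matched within them, and the GC box and E-box of *Ass1* lay in the rest of its window. The CACGTG and TGACGTCA motifs read the same on both strands.

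Libraries held 9059418 to 35068669 counts, with a median of 18541770. *Nts*, which encodes neurotensin, was 4.98 CPM or more in every NT+/+ mouse and 0.793 CPM or less in every NT-/- mouse. CPM is a gene's count scaled to a fixed library size, with edgeR's TMM factors applied. Replicate 5 of the fasted NT+/+ group carries a genotype label that reads NT -/- beside its title, and it was kept in the group of its title. Its *Nts* level was 5.43 CPM. Markers of other organs were near 0, with the sum of 5 hepatocyte markers at 5.87 CPM or less and the sum of 5 pancreatic acinar markers at 4.28 CPM or less in every mouse, and with 2 to 4 of the acinar markers at 0 in each group. Of 13 enterocyte markers, none was at 0 in any group, and their summed level ranged from 8621 to 16289.5 CPM in fed NT+/+ mice, 12073 to 17679.6 CPM in fed NT-/- mice, 16361 to 30480.4 CPM in fasted NT+/+ mice and 27326 to 37179.9 CPM in fasted NT-/- mice. Within these bulk samples, fewer cells of a type and less RNA per cell cannot be told apart.

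Levels of different genes were compared in TPM, as deposited by the authors, because TPM is corrected for transcript length. In fed NT+/+ mice *Oat* and *Cps1* were far above the rest, at 536 ± 51.3 TPM and 467 ± 44.2 TPM (SD, n = 5), and their ranges overlapped. *Aldh18a1* followed at 126 ± 9.28 TPM and *Arg2* at 113 ± 25.9 TPM, also with overlapping ranges, and *Arg2* overlapped in turn with *Otc* at 65.1 ± 9.07 TPM, although *Arg2* was higher than *Otc* in all 5 mice. Below them came *Prodh* at 29.5 ± 3.31 TPM, *Nags* at 20.2 ± 2.31 TPM and *Asl* at 14.0 ± 2.08 TPM, with no overlap between neighbours. *Ass1* was the lowest of the 9 in every group, at 7.76 ± 1.31 TPM in fed NT+/+ mice and 4.79 ± 0.54 TPM in fasted NT-/- mice. Among the 9 genes, those of the cytosolic steps from citrulline to arginine, *Asl* and *Ass1*, therefore had the lowest mean TPM in all 4 groups.

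The order differed among the groups mainly at *Arg2*. In fed NT-/- mice *Arg2* ranked next after *Oat* and *Cps1* at 151 ± 19.1 TPM (n = 4) and overlapped with *Aldh18a1* at 135 ± 10.1 TPM. In fasted NT+/+ mice *Arg2* was 185 ± 40.0 TPM (n = 5), above every *Aldh18a1* value, and *Cps1* was 293 ± 46.6 TPM. In fasted NT-/- mice *Arg2* reached 253 ± 38.0 TPM and its range overlapped with that of *Cps1* at 288 ± 49.4 TPM, with *Cps1* the higher of the pair in 4 of 5 mice. *Nags* and *Asl* overlapped in fasted NT+/+ mice.

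**Figure D1:**
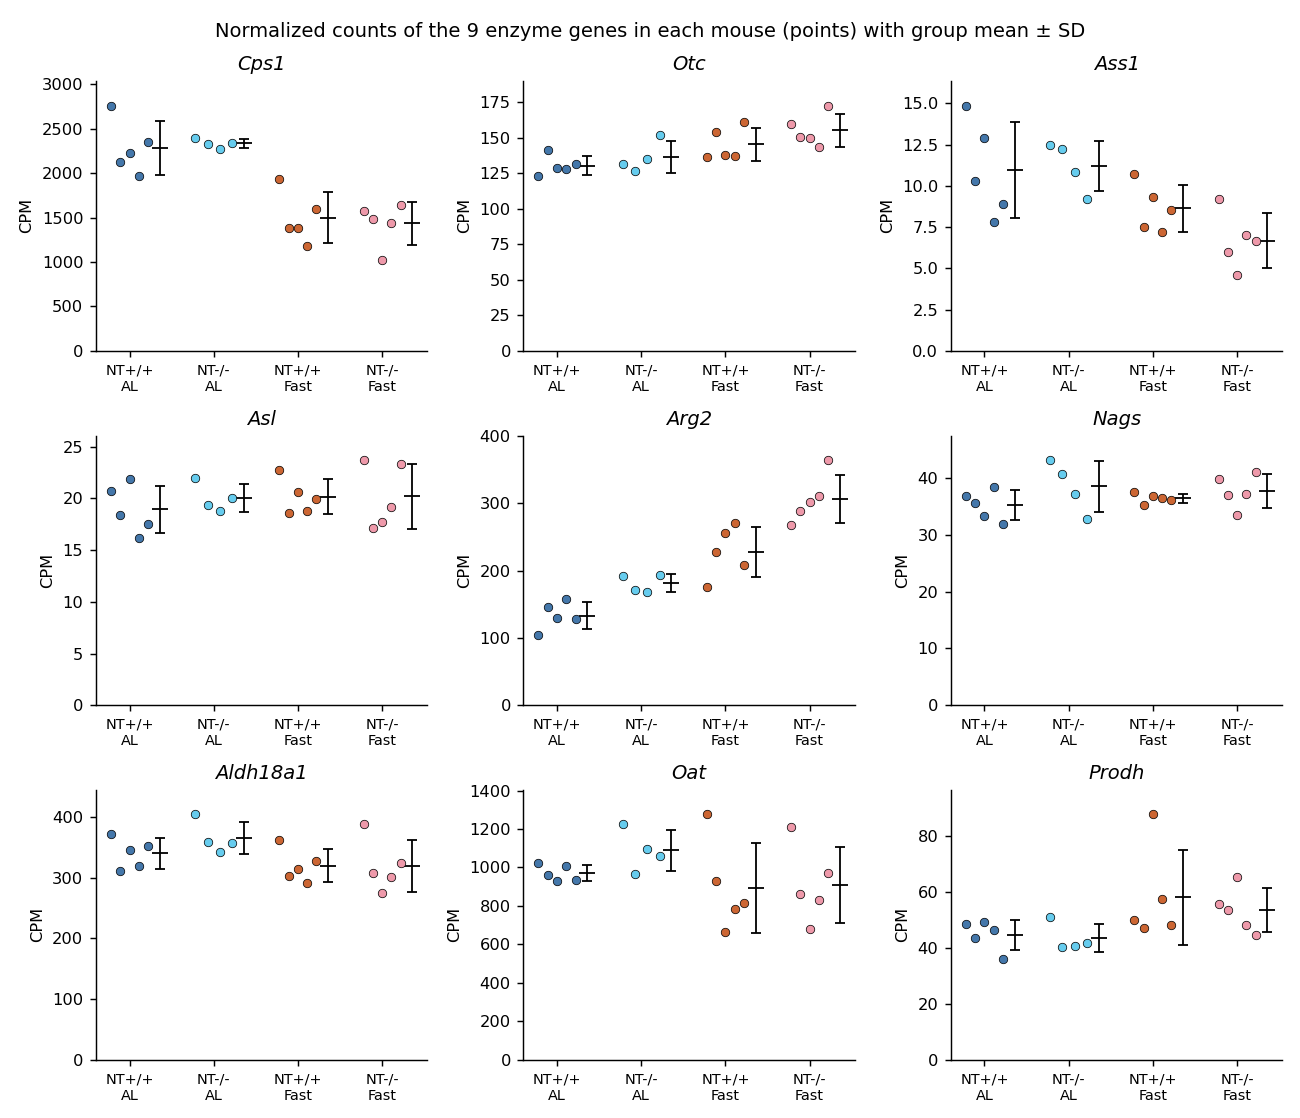
Normalized counts (CPM, linear axis from 0) of each of the 9 enzyme genes in each mouse, by group, with the group mean and SD beside the points. *Cps1* sits lower and *Arg2* higher in all fasted mice than in fed mice of the same genotype, while *Asl* and *Nags* overlap in all groups.

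With fasting, *Cps1* fell and *Arg2* rose in NT+/+ mice and in NT-/- mice, and *Ass1* was also called lower in NT-/- mice. *Cps1* was 34.5% lower in NT+/+ and 38.6% lower in NT-/- mice, and *Arg2* was 1.71-fold and 1.69-fold higher. *Otc*, *Asl*, *Nags*, *Aldh18a1*, *Oat* and *Prodh* did not pass this test, which had no block, in either genotype. With the set number of the file names as a block, *Otc* was called in both genotypes, *Aldh18a1* in NT-/- and *Prodh* in NT+/+ mice, as given below. Without a block, 2 of the 9 genes were called in NT+/+ mice at an adjusted p under 0.05, 1 higher and 1 lower. There 21.6% of all tested genes were called (11.2% higher and 10.4% lower). In NT-/- mice 3 of the 9 were called, 1 higher and 2 lower, where 25.2% of all tested genes were called (12.5% higher and 12.6% lower). The share of the 9 genes called without a block was therefore near that of all genes. At an unadjusted p under 0.05, 4 of the 9 passed in NT+/+ mice against 34.1% of all tested genes, and 5 of the 9 in NT-/- mice against 36.5%. The median log2 fold change of the 9 genes was 0.05 in NT+/+ mice and -0.03 in NT-/- mice, against -0.01 and -0.02 over all tested genes.

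*Cps1* (ENSMUSG00000025991; GRCm38, chromosome 1, 67123026–67231259, plus strand) makes the carbamoyl phosphate that enters citrulline. It was 2761, 2120.3, 2223, 1963 and 2356 CPM in the 5 fed NT+/+ mice and 1937, 1379.8, 1386, 1181 and 1596 CPM in the 5 fasted NT+/+ mice. It was 2395, 2328, 2275 and 2342 CPM in the 4 fed NT-/- mice and 1576, 1480.3, 1026, 1444 and 1645 CPM in the 5 fasted NT-/- mice. Every fasted mouse was below every fed mouse of its genotype. Groups that did not overlap were found for 14.6% of all tested genes in NT+/+ mice (7.63% higher, 6.97% lower) and 21.3% in NT-/- mice (10.5% higher, 10.8% lower). The log2 fold change was -0.61 in NT+/+ mice (SE 0.14, edgeR adjusted p = 0.00333). In NT-/- mice it was -0.70 (SE 0.14, edgeR adjusted p = 0.00137).

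*Arg2* (ENSMUSG00000021125; chromosome 12, 79130777–79156301, plus strand) encodes the mitochondrial arginase. Fed mice had 104, 146, 129, 157 and 128 CPM (NT+/+) and 192, 171, 169 and 194 CPM (NT-/-). Fasted mice had 176, 228, 255, 269.8 and 208 CPM (NT+/+) and 267, 288, 302, 309.9 and 364 CPM (NT-/-). Every fasted mouse was above every fed mouse of its genotype. The log2 fold change with fasting was 0.77 in NT+/+ mice (SE 0.12, edgeR adjusted p = 0.000128). In NT-/- mice it was 0.75 (SE 0.13, edgeR adjusted p = 0.000247). The *Arg2* locus overlaps *Vti1b* on the other strand, and whether the authors counted by strand is not given in the sources used here. *Vti1b* had at most 1373 counts in a mouse and *Arg2* had 1959 to 6889.

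*Ass1* (ENSMUSG00000076441; chromosome 2, 31470207–31520672, plus strand) joins citrulline to aspartate. It was 14.9, 10.3, 12.9, 7.82 and 8.89 CPM in fed NT+/+ mice and 10.7, 7.5, 9.31, 7.2 and 8.51 CPM in fasted NT+/+ mice, and these groups overlapped. In NT-/- mice it was 12.5, 12.2, 10.8 and 9.21 CPM when fed and 9.18, 6.01, 4.57, 7 and 6.66 CPM when fasted, and these groups did not overlap, although the highest fasted mouse lay just below the lowest fed mouse. The log2 fold change was -0.74 in NT-/- mice (SE 0.20, edgeR adjusted p = 0.00925), a level 40.2% lower, and -0.34 in NT+/+ mice (SE 0.18, edgeR adjusted p = 0.208). The difference between these effects of fasting was -0.40 on the log2 scale (SE 0.27, 95% interval -0.97 to 0.16, edgeR adjusted p = 1), so a difference between the genotypes was not detected. *Ass1* had 53 to 424 counts per mouse, the fewest of the 9 genes.

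*Asl* (ENSMUSG00000025533; chromosome 5, 130011258–130029247, minus strand), whose product releases arginine in the following step, ranged from 16.2 to 23.7 CPM over all 19 mice. Its log2 fold change with fasting was 0.09 in NT+/+ mice (95% interval -0.13 to 0.31) and 0.01 in NT-/- mice (95% interval -0.22 to 0.25). The ratio of *Ass1* to *Asl* in TPM within each mouse was 0.554 ± 0.0221 in fed NT+/+ mice (n = 5), 0.508 ± 0.0894 in fed NT-/- mice (n = 4), 0.397 ± 0.0625 in fasted NT+/+ mice (n = 5) and 0.326 ± 0.0355 in fasted NT-/- mice (n = 5). In both genotypes the highest ratio of a fasted mouse was lower than the lowest of a fed mouse in the same genotype, at 0.471 against 0.519 in NT+/+ and 0.356 against 0.381 in NT-/-.

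*Otc* (ENSMUSG00000031173; chromosome X, 10252305–10321024, plus strand), the enzyme that makes citrulline, did not follow *Cps1*. It was 123 to 141 CPM in fed and 136 to 161 CPM in fasted NT+/+ mice, and 126 to 152 CPM in fed and 144 to 173 CPM in fasted NT-/- mice, so that the groups overlapped. The log2 fold change with fasting was 0.16 in NT+/+ mice (SE 0.07, edgeR adjusted p = 0.121) and 0.19 in NT-/- mice (SE 0.07, edgeR adjusted p = 0.071). The set number of the file names was taken to pair the mice, and what it stands for is not given in the sources used here. With this number as a block, *Otc* was called higher in both genotypes, at 0.15 in NT+/+ (edgeR adjusted p = 0.0488) and 0.20 in NT-/- (edgeR adjusted p = 0.0194). Pair by pair within these sets, *Otc* was above its fed partner in 5 of 5 fasted NT+/+ mice and 4 of 4 fasted NT-/- mice. Without replicate 4 of the fed NT-/- mice, the highest of its group, *Otc* was also called in NT-/- mice (0.24, edgeR adjusted p = 0.0292). The TPM ratio of *Cps1* to *Otc* was 7.29 ± 1.21 and 7.11 ± 0.579 in fed NT+/+ and NT-/- mice and 4.27 ± 0.936 and 3.81 ± 0.56 in fasted NT+/+ and NT-/- mice, with no overlap between diets in either genotype.

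*Nags* (ENSMUSG00000048217; chromosome 11, 102145513–102149477, plus strand) makes the activator of the *Cps1* product and varied little. It lay between 32.0 and 43.2 CPM over all mice, and its log2 fold change with fasting was 0.05 in NT+/+ mice (95% interval -0.11 to 0.21) and -0.03 in NT-/- mice (95% interval -0.20 to 0.14). Its SE was 0.08 in each genotype.

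Of the 3 genes that supply ornithine, *Aldh18a1* (ENSMUSG00000025007; chromosome 19, 40550257–40588463, minus strand), which opens the route from glutamate, was 310.1 to 371 CPM in fed and 291 to 362 CPM in fasted NT+/+ mice, and 343 to 404 CPM in fed and 274 to 389 CPM in fasted NT-/- mice. Its log2 fold change with fasting was -0.09 in NT+/+ mice (SE 0.09, edgeR adjusted p = 0.529) and -0.20 in NT-/- mice (SE 0.09, edgeR adjusted p = 0.135). With the set number as a block *Aldh18a1* was called lower in NT-/- mice, at -0.19 (edgeR adjusted p = 0.0283), and likewise without replicate 1 of the fasted NT-/- mice, the highest of its group, at -0.28 (edgeR adjusted p = 0.0219).

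*Oat* (ENSMUSG00000030934; chromosome 7, 132557478–132576398, minus strand), which interconverts pyrroline-5-carboxylate and ornithine, ranged widely in fasted mice. It was 929.7 to 1022 CPM in fed and 666 to 1276 CPM in fasted NT+/+ mice, and 968 to 1227 CPM in fed and 678 to 1212 CPM in fasted NT-/- mice. In NT+/+ mice the coefficient of variation was 4.37% when fed and 26.0% when fasted, a contrast that was not tested. The log2 fold change was -0.12 in NT+/+ mice (95% interval -0.44 to 0.20) and -0.26 in NT-/- mice (95% interval -0.59 to 0.08). Replicate 1 had the highest *Oat* value in each of the 4 groups. *Oat* overlaps *Fgfr2* on the same strand, which had at most 1322 counts in a mouse against 7575 to 41582 for *Oat*.

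*Prodh* (ENSMUSG00000003526; chromosome 16, 18060357–18090203, minus strand), the enzyme that starts proline breakdown, was 48.6, 43.4, 49.1, 46.3 and 36 CPM in fed and 49.8, 47.2, 87.7, 57.5 and 48.3 CPM in fasted NT+/+ mice. It was 51.0, 40.5, 40.6 and 41.8 CPM in fed and 55.6, 53.7, 65.3, 48.2 and 44.6 CPM in fasted NT-/- mice. The groups overlapped in both genotypes, and replicate 3 of fasted NT+/+ mice stood far above the others. The log2 fold change was 0.38 in NT+/+ mice (SE 0.15, edgeR adjusted p = 0.0734) and 0.18 without that mouse (edgeR adjusted p = 0.276). It was called without replicate 2 or replicate 5 of the fasted NT+/+ mice, at 0.45 (edgeR adjusted p = 0.0478) and 0.44 (edgeR adjusted p = 0.0469). In NT-/- mice it was 0.30 (SE 0.16, edgeR adjusted p = 0.183). With the set number as a block *Prodh* was called higher in NT+/+ mice, at 0.35 (edgeR adjusted p = 0.0108), and not in NT-/- mice, at 0.20 (edgeR adjusted p = 0.165). With the number of the titles as a block *Prodh* was called in both, at 0.36 in NT+/+ (edgeR adjusted p = 0.0241) and 0.35 in NT-/- mice (edgeR adjusted p = 0.0394). The block of set numbers brought the called genes to 4 of 9 in NT+/+ mice and 5 of 9 in NT-/- mice, where 30.7% and 31.7% of all tested genes were called. With the title block they were 3 of 9 and 5 of 9, where 28% and 31.6% of all tested genes were called. *Prodh* overlaps *Dgcr6* on the other strand, which had at most 646 counts in a mouse against 473 to 1729 for *Prodh*.

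**Figure D2:**
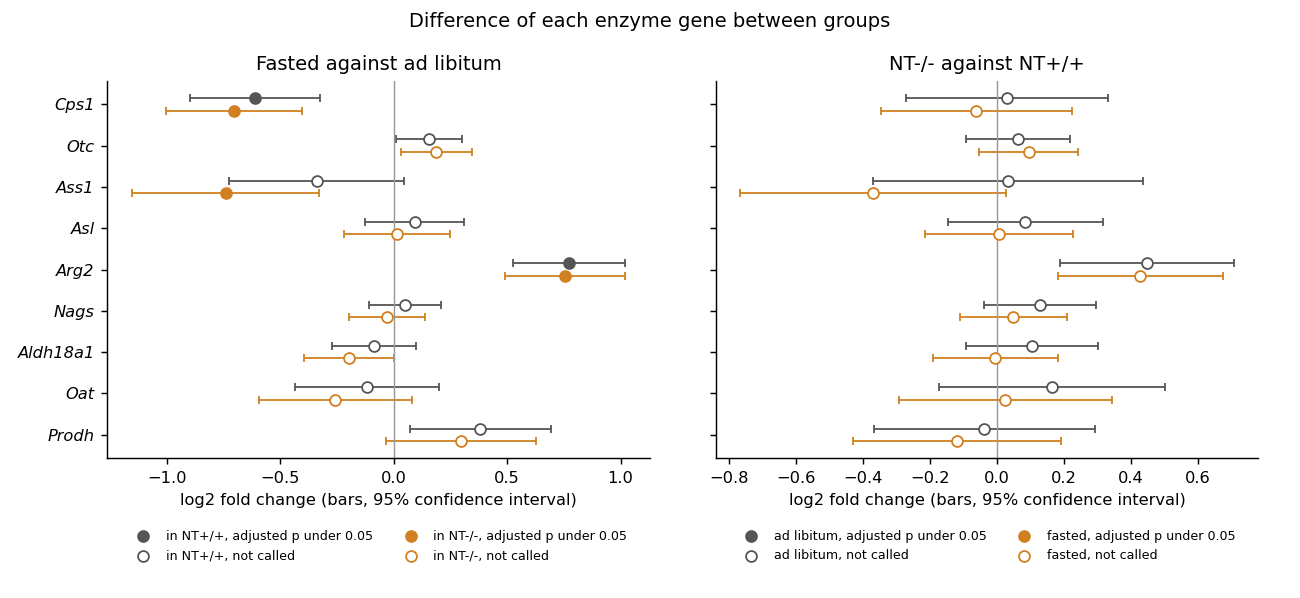
Log2 fold changes of the 9 enzyme genes (x axis) with 95% confidence intervals, for fasting in each genotype (left) and for NT-/- against NT+/+ mice in each diet (right); filled points had an adjusted p under 0.05. *Cps1* is lower and *Arg2* higher with fasting in both genotypes, *Ass1* is called lower in NT-/- mice, and no gene is called between the genotypes.

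The opposite moves of *Cps1* and *Arg2* brought their transcripts towards the same level. The ratio of *Arg2* to *Cps1* in TPM was 0.246 ± 0.0656 in fed NT+/+ mice (n = 5) and 0.318 ± 0.0188 in fed NT-/- mice (n = 4). Fasted mice had ratios of 0.655 ± 0.215 (NT+/+) and 0.897 ± 0.191 (NT-/-), with n = 5 each, and in 1 fasted NT-/- mouse it reached 1.21. The lowest ratio of a fasted NT+/+ mouse, 0.373, was above the highest of a fed NT+/+ mouse, 0.329.

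Between genotypes, 0 of the 9 genes were called in either diet by edgeR, where *Nts* alone was called, 0.00559% of the genes tested, in each diet. At an unadjusted p under 0.05, 1 of the 9 differed in each diet, *Arg2* both times, against 1.67% of all tested genes in fed and 9.14% in fasted mice. From the values given earlier, all 4 fed NT-/- mice had more *Arg2* than all 5 fed NT+/+ mice, and groups that did not overlap were found for 0.694% of all tested genes (0.358% with NT-/- higher). Its log2 difference was 0.45 (SE 0.12, 95% interval 0.19 to 0.71, unadjusted p = 0.00183, edgeR adjusted p = 1), and *Arg2* was rank 12 of the tested genes by p. In fasted mice 1 NT+/+ mouse, at 269.8 CPM, was above the lowest NT-/- mouse, at 267 CPM, and the log2 difference was 0.43 (SE 0.12, 95% interval 0.18 to 0.67, unadjusted p = 0.00166, edgeR adjusted p = 0.267), at rank 110. Fasted genotype groups overlapped for all 9 genes, and did not overlap for 1.56% of all tested genes (0.94% higher, 0.615% lower).

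DESeq2's Wald test called *Arg2* in fasted mice (log2 difference 0.44, adjusted p = 0.0378), where it called 0.565% of the genes tested, and not in fed mice (adjusted p = 0.666). Within sets of the file names *Arg2* was higher in the NT-/- mouse in 4 of 4 fed and 5 of 5 fasted pairs. Averaged over diets, a contrast added after these values were seen, *Arg2* was 0.44 on the log2 scale in NT-/- against NT+/+ mice (SE 0.09, edgeR adjusted p = 0.165), where 0.0224% of all tested genes were called (0.00559% higher, 0.0168% lower) and 6.77% passed unadjusted. This average was called in 3 of 9 alternatives, with the set number as a block (edgeR adjusted p = 0.0414, 0.0839% of all tested genes called), with the title number as a block (edgeR adjusted p = 0.0313) and by DESeq2 (adjusted p = 0.00228, 0.308% called). Over the alternatives its value ranged from 0.38 to 0.46 and its adjusted p from 0.00228 to 0.958, the last with the mouse of disagreeing labels placed among NT-/- mice, and it was called in 0 of the 19 edgeR fits without 1 mouse (adjusted p from 0.0742 to 0.302). With the mouse of disagreeing labels placed among NT-/- mice the fasted difference was 0.32 (edgeR adjusted p = 0.79). That mouse had 5.43 CPM of *Nts*, within the fasted NT+/+ range of 4.98 to 5.71 CPM. Every NT-/- mouse had 0.793 CPM or less, so this fit sets a mouse with *Nts* among the NT-/- mice. Over the alternatives the edgeR or DESeq2 adjusted p of *Arg2* ranged from 0.666 to 1 in fed mice. In fasted mice it ranged from 0.0378 to 0.79, the highest being the fit with that mouse moved.

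The other 8 genes had smaller estimated differences between genotypes, and the median over the 9 was 0.08 in fed and 0.01 in fasted mice, against -0.00 and -0.01 over all tested genes. *Ass1* had a log2 difference of -0.37 in fasted mice (95% interval -0.77 to 0.03, edgeR adjusted p = 0.586) and 0.03 in fed mice (95% interval -0.37 to 0.44). *Cps1* differed by 0.03 in fed mice (95% interval -0.27 to 0.33) and by -0.06 in fasted mice (95% interval -0.35 to 0.22). For the effect of fasting itself, 0 genes of all tested were called as different between the genotypes by edgeR (485 at an unadjusted p under 0.05, or 2.71%, and 0 of the 9). For *Arg2* the difference between the effects was -0.02 with a 95% interval of -0.38 to 0.34. The interval for *Cps1* was -0.51 to 0.32 around -0.09.

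Cell markers moved with these genes. With fasting, 11 of 13 enterocyte markers were called higher in NT+/+ mice and 12 of 13 in NT-/- mice, and 4 of 6 and 6 of 6 proliferating cell markers were called lower. Of all tested genes 21.6% and 25.2% were called. The enterocyte markers rose unevenly, from 0.26 for *Vil1* to 2.09 for *Fabp1* on the log2 scale in NT+/+ mice. Those not called were *Vil1* (edgeR adjusted p = 0.216) and *Sis* (0.35, edgeR adjusted p = 0.163) in NT+/+ mice, and *Vil1* in NT-/- mice (0.39, edgeR adjusted p = 0.0724). Between genotypes none of the enterocyte or proliferating cell markers was called by edgeR. At an unadjusted p under 0.05, 5 of 13 enterocyte markers and 5 of 6 proliferating cell markers differed in fasted mice, against 9.14% of all tested genes. The summed proliferating cell markers ranged from 1595 to 1811 CPM in fed NT+/+ mice, 1530.3 to 1667 CPM in fed NT-/- mice, 1032 to 1392 CPM in fasted NT+/+ mice and 917 to 1178 CPM in fasted NT-/- mice. After the group means were removed, the r of each gene with the enterocyte sum over the 19 mice was 0.868 for *Arg2*, -0.688 for *Ass1*, -0.661 for *Cps1*, -0.539 for *Aldh18a1*, -0.492 for *Oat*, -0.442 for *Asl*, 0.24 for *Prodh*, -0.227 for *Nags* and 0.179 for *Otc*. Of these, *Arg2* was the highest and *Ass1* the lowest, so that a mouse with more enterocyte marker RNA than its group had more *Arg2* and less *Ass1* and *Cps1*. Whether the markers rose through more enterocytes or more RNA of these genes per cell cannot be told apart. The part of enterocyte marker RNA in the differences of *Arg2*, *Cps1* and *Ass1* was not tested.

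**Figure D3:**
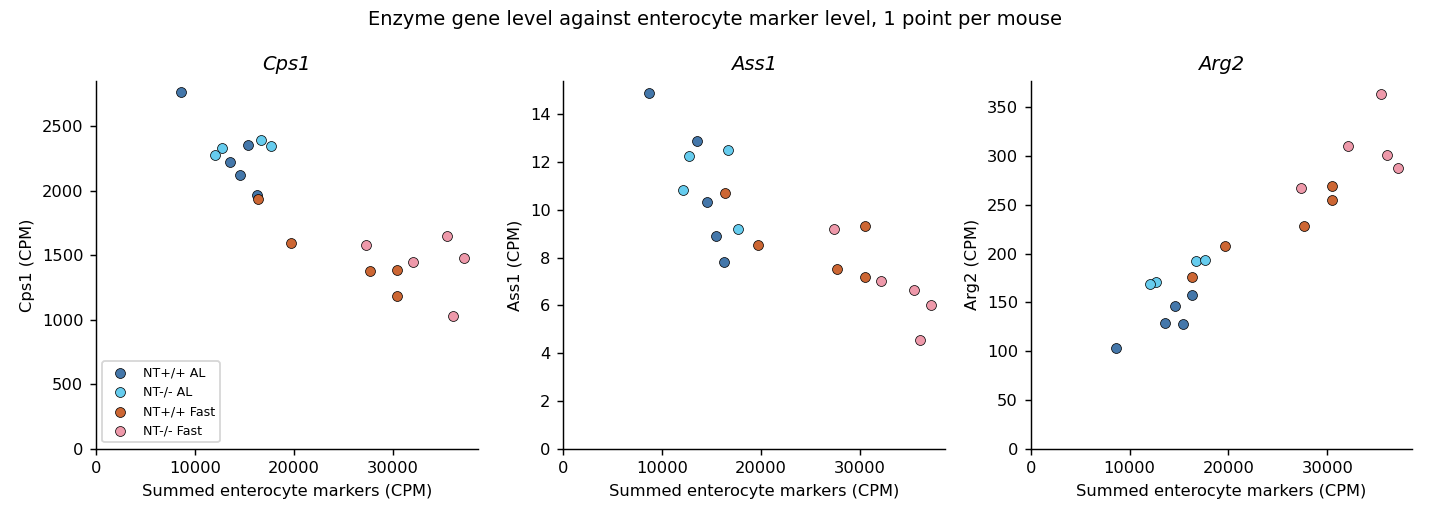
*Cps1*, *Ass1* and *Arg2* (y axes, CPM) against the summed level of 13 enterocyte markers (x axis, CPM), 1 point per mouse, coloured by group. *Arg2* is high and *Cps1* and *Ass1* are low in mice with a high enterocyte sum, and 4 of the 5 fasted NT-/- mice lie to the right of all other mice.

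Markers of other cell types were also checked. Paneth cell markers were called in 0 of 6 cases in NT+/+ mice and 1 of 6, lower, in NT-/- mice with fasting, and goblet cell markers in 3 of 6 (1 higher, 2 lower) and 4 of 6 (1 higher, 3 lower). The sum of 7 immune cell markers was 98.2 ± 30.7 CPM in fed NT+/+, 96.7 ± 22.1 CPM in fed NT-/-, 116 ± 49.0 CPM in fasted NT+/+ and 150.0 ± 31.6 CPM in fasted NT-/- mice, and 1 of the 6 tested was called higher with fasting, in NT-/- mice. The sum of 6 crypt stem cell markers was 1813 to 2918 CPM in fed and 1139.8 to 2144 CPM in fasted NT+/+ mice. In NT-/- mice it was 1615 to 2523 CPM in fed and 1037 to 1520.1 CPM in fasted mice. With fasting, 1 of 6 was called lower in NT+/+ mice and 2 of 6 in NT-/- mice, and none was called higher. Single stem cell markers went both ways in NT+/+ mice, where 4 of 6 had a log2 fold change above 0 (median 0.09). In NT-/- mice 1 of 6 did (median -0.28). In NT+/+ mice *Olfm4* was called lower at -0.63, while *Ascl2* at 0.63 and *Lgr5* at 0.29 were not called. The part of these cell types in the results for the enzymes was not tested.

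Within groups the 9 genes fell into a pattern of shared deviations. Over the 19 mice, with group means removed, 25 of the 36 pairs had a positive r and the median was 0.13. The highest were *Ass1* with *Asl* at 0.805, *Cps1* with *Aldh18a1* at 0.79, *Ass1* with *Aldh18a1* at 0.768, *Asl* with *Aldh18a1* at 0.764 and *Aldh18a1* with *Oat* at 0.744. *Arg2* deviated the other way, at -0.589 with *Cps1*, -0.582 with *Ass1* and -0.551 with *Aldh18a1*. *Otc* and *Cps1*, which act on the same intermediate, had an r of 0.099. The points share their libraries, the TMM scaling and the enterocyte sums already given, and these values are descriptions.

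**Figure D4:**
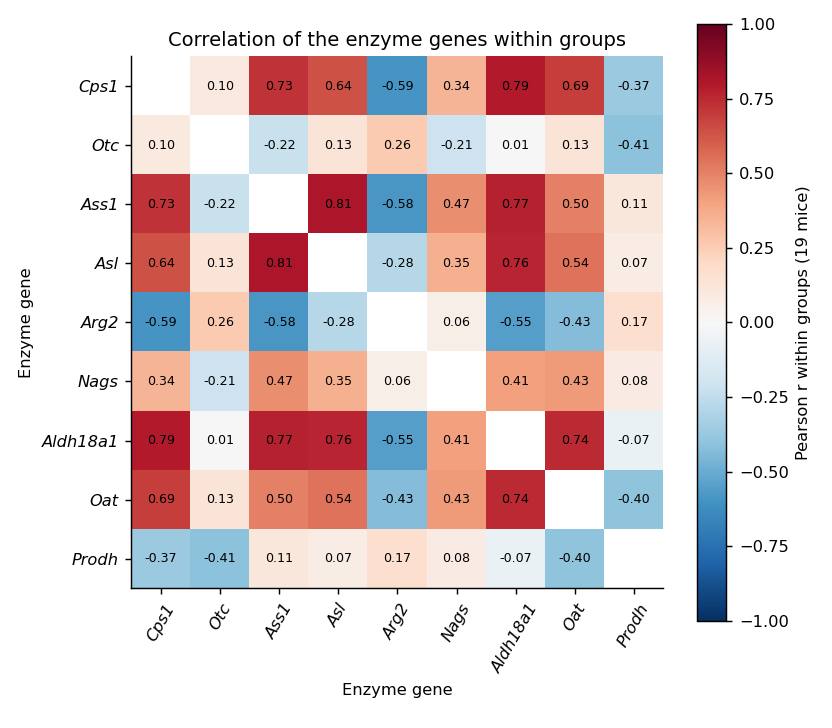
Pearson r of the deviations of log2(CPM + 1) from the group means for each pair of the 9 enzyme genes over 19 mice, on a colour scale from -1 to 1. *Cps1*, *Ass1*, *Asl*, *Aldh18a1* and *Oat* form a block of positive values of 0.5 or more, and *Arg2* is negative with each of them.

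By the same measure, the genes most like *Cps1* among 13061 candidates were *Kif22* (r = 0.926), *Ncaph* (0.912) and *Itga6* (0.911). *Kif22*, a kinesin of dividing cells, and *Ncaph*, a condensin subunit, were called lower with fasting in NT-/- mice, at log2 fold changes of -0.61 (edgeR adjusted p = 0.00358) and -0.43 (edgeR adjusted p = 0.00821), and not in NT+/+ mice, at -0.34 (edgeR adjusted p = 0.0727) and -0.25 (edgeR adjusted p = 0.096). *Itga6*, an integrin subunit, was called lower in both, at -0.26 in NT+/+ (edgeR adjusted p = 0.02) and -0.27 in NT-/- mice (edgeR adjusted p = 0.0192). The genes most like *Arg2* were *Tcrg-C1* (r = 0.92) and *Cd96* (0.91), which are expressed by T cells, and *Mfsd4b2* (0.913). *Mfsd4b2* was called higher with fasting, at 0.70 in NT+/+ (edgeR adjusted p = 0.00176) and 0.82 in NT-/- mice (edgeR adjusted p = 0.000656). *Tcrg-C1* and *Cd96* were not called. *Cd96* was 0.77 in NT+/+ (edgeR adjusted p = 0.169) and 1.09 in NT-/- mice (edgeR adjusted p = 0.0587). *Tcrg-C1* was 0.36 (edgeR adjusted p = 0.54) and 0.63 (edgeR adjusted p = 0.282). Most like *Ass1* were *Glrx5* (0.918), *Lrrk1* (0.917) and *Krt18* (0.914), and most like *Otc* were *Hibch* (0.836), *Mgat4a* (0.835) and *Atp8b1* (0.833). Of these, only *Lrrk1* was called with fasting, lower at -0.18 in NT+/+ (edgeR adjusted p = 0.0404) and -0.21 in NT-/- mice (edgeR adjusted p = 0.0198).

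Among related genes, those of glutamine and glutamate metabolism included calls in both directions with fasting. Of 7 glutamine and glutamate enzymes, 3 were called higher and 1 lower in NT+/+ mice, and 4 higher and 1 lower in NT-/- mice. Over all tested genes 11.2% were called higher and 10.4% lower in NT+/+ mice, and 12.5% and 12.6% in NT-/- mice. The same shares stand beside the counts of each list that follows. *Glud1*, glutamate dehydrogenase, was 307 ± 12.1 and 345 ± 23.2 CPM in fed NT+/+ and NT-/- mice and 501 ± 81.7 and 706 ± 110 CPM in fasted NT+/+ and NT-/- mice, with log2 fold changes of 0.71 (SE 0.11, edgeR adjusted p = 0.000143) and 1.04 (SE 0.12, edgeR adjusted p = 4.4e-06). Also on the log2 scale, *Gpt*, an alanine aminotransferase, rose by 1.17 in NT+/+ (edgeR adjusted p = 0.00114) and by 1.32 in NT-/- mice (edgeR adjusted p = 0.000605). *Glul*, glutamine synthetase, rose by 0.35 (edgeR adjusted p = 0.0326) and 0.38 (edgeR adjusted p = 0.0261).

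*Gls2*, the liver-type glutaminase, fell in both genotypes, from 4.70 to 2.56 CPM in NT+/+ mice and from 4.70 to 1.81 CPM in NT-/- mice on average, with log2 fold changes of -0.87 (SE 0.19, edgeR adjusted p = 0.00333) and -1.38 (SE 0.21, edgeR adjusted p = 0.000102). *Got2*, mitochondrial aspartate aminotransferase, was called higher in NT-/- mice at 0.34 (edgeR adjusted p = 0.00992), while in NT+/+ mice its value was 0.20 (edgeR adjusted p = 0.103).

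Of 4 other proline and ornithine enzymes, none was called with fasting in NT+/+ mice by edgeR, and in NT-/- mice 1 was called higher and 2 lower. At an unadjusted p under 0.05, 2 passed in NT+/+ mice, against 34.1% of all tested genes. *Pycr1* and *Pycr3*, which encode reductases that make proline, were those called lower, with log2 fold changes of -0.67 (edgeR adjusted p = 0.0171) and -0.27 (edgeR adjusted p = 0.0212). The gene called higher was *Prodh2*, a hydroxyproline dehydrogenase, at 1.20 (edgeR adjusted p = 0.0347) and a mean of 0.780 CPM when fasted. Whether these effects differed between the genotypes was tested for all genes, and none was called.

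Of 7 other genes whose enzymes use arginine or products made from it, 4 had enough counts to be tested. *Agmat*, agmatinase, which acts on agmatine and not on arginine itself, rose in both genotypes. On average it went from 9.60 to 19.4 CPM in NT+/+ and from 9.89 to 18.1 CPM in NT-/- mice. Its log2 fold changes were 1.02 (SE 0.10, edgeR adjusted p = 1.33e-06) and 0.87 (SE 0.11, edgeR adjusted p = 1.47e-05). *Arg1*, the cytosolic arginase of liver, was near 1 CPM in all groups (means of 0.949 to 1.33 CPM) and was not called. *Nos2*, inducible nitric oxide synthase, was called higher in NT-/- mice at 2.30 (SE 0.77, edgeR adjusted p = 0.0347), but its median in fasted NT-/- mice was 16.1 CPM against a highest value of 171.6 CPM, and the groups overlapped. Its mean was 9.33 CPM in fed NT-/- mice (0.758 to 19.1 CPM) and 28.1 CPM in fed NT+/+ mice (14.0 to 39.7 CPM). *Nos1*, *Nos3* and *Gatm* were below the filter on low counts.

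Of 6 mitochondrial carriers of the route, 2 were called higher in each genotype and none lower. On the log2 scale, used for all the carriers, *Slc25a15*, the ornithine carrier, was 0.37 higher with fasting in NT-/- mice (SE 0.09, edgeR adjusted p = 0.00445). In NT+/+ mice its value was 0.22 (SE 0.08, edgeR adjusted p = 0.067). *Slc25a13*, an aspartate and glutamate carrier, rose in both, by 0.25 (edgeR adjusted p = 0.0315) and 0.31 (edgeR adjusted p = 0.0125), and *Slc25a12*, its relative, rose in NT+/+ mice by 0.46 (edgeR adjusted p = 0.0176) and was 0.26 in NT-/- mice (edgeR adjusted p = 0.195).

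The glutamine amidotransferases, which spend glutamine nitrogen on nucleotides and amino sugars, gave 3 lower calls in each genotype among 9 tested. Changes are given on the log2 scale. *Cad*, the carbamoyl phosphate synthetase of pyrimidine synthesis, fell by 0.43 in NT+/+ (26.0% lower, edgeR adjusted p = 0.0208) and by 0.63 in NT-/- mice (35.2% lower, edgeR adjusted p = 0.00234). *Pfas*, of purine synthesis, fell by 0.32 (edgeR adjusted p = 0.0257) and by 0.53 (edgeR adjusted p = 0.00108), and *Gfpt1*, which opens hexosamine synthesis, fell by 0.39 (edgeR adjusted p = 0.00441) and by 0.57 (edgeR adjusted p = 0.000272). *Asns*, asparagine synthetase, was called higher in NT+/+ mice at 0.57 (edgeR adjusted p = 0.0114), while its value in NT-/- mice was 0.31 (edgeR adjusted p = 0.184). None of the genes of these 5 lists was called between the genotypes by edgeR. At an unadjusted p under 0.05, 0 of 7, 0 of 4, 1 of 4, 1 of 6 and 0 of 9 differed in fed mice, and 3 of 7, 1 of 4, 0 of 4, 1 of 6 and 2 of 9 in fasted mice, in the order in which the lists were described. Over all tested genes 1.67% differed so in fed and 9.14% in fasted mice.

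**Figure D5:**
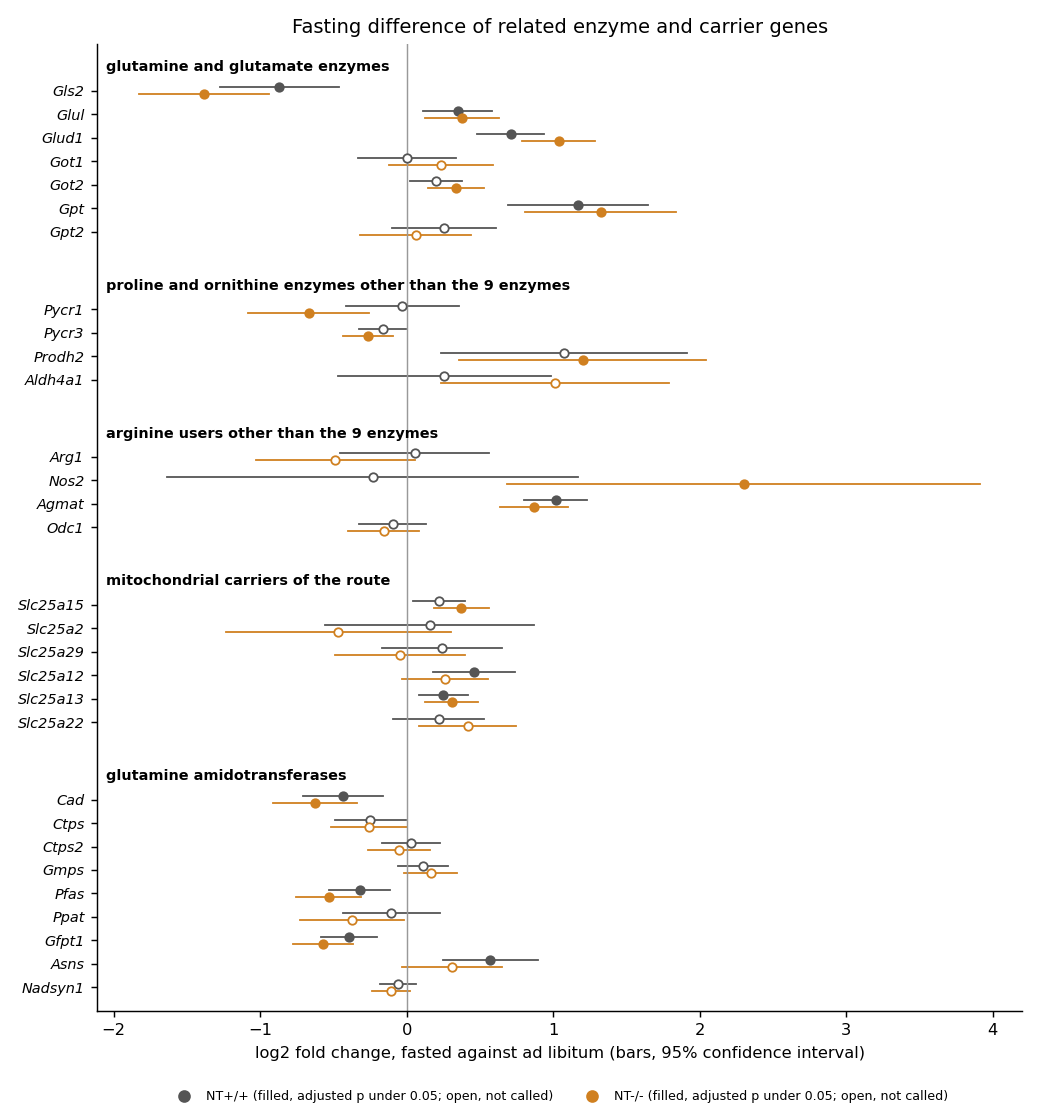
Log2 fold change with fasting (x axis, with 95% confidence intervals) of the tested genes reported from 5 related lists, in NT+/+ mice (grey) and NT-/- mice (orange); filled points had an adjusted p under 0.05. *Glud1*, *Gpt*, *Glul*, *Agmat* and *Slc25a13* are called higher and *Gls2*, *Cad*, *Pfas* and *Gfpt1* lower in both genotypes.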

How the data were processed

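Crypt RNA of 19 mice was sequenced as single-end reads of 100 bases. The authors trimmed reads with Trimmomatic (version 0.39) and mapped them to Ensembl GRCm38 transcripts (release 100) using RSEM. Their deposited files give, per gene, an unnormalized expected count and a TPM value. The RSEM version and strand setting are not given in the sources used here.

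Expected counts were rounded and scaled by TMM. The 17875 genes that passed filterByExpr were fitted with edgeR (version 4.0.16; R 4.3.3) with 1 coefficient for each of 4 groups (15 residual degrees of freedom). Its quasi-likelihood test with Benjamini-Hochberg adjustment over all genes tested was used at an adjusted p under 0.05, and called means past it. Standard errors were taken as |log2 fold change| over the root of F. The script was tested on simulated data. TPM was used as deposited for comparing genes. Coordinates are from GENCODE vM21, matched by gene ID for 55227 of 55487 genes.

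The 9 genes and all lists were chosen with earlier results of these data known. The genes named were all 9, every gene of the 5 pathway lists called with fasting or between genotypes, *Arg1* and *Glul*, the 3 genes most correlated with *Cps1*, *Otc*, *Ass1* and *Arg2* (average of at least 1 log2 CPM), and *Nts*. No list was tested as a set. Of the pathway lists, 2 genes are not reported here and are left out of the counts.

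Mice of different groups share a number in the titles and another in the file names, which differs for 2 mice. Deviations from group means correlated in every pair with the same file-name number in all 4 comparisons (lowest r, 0.149), so that number was taken to pair the mice. With the title number the lowest r was -0.09. Alternatives were RLE and upper quartile scaling, other filters, DESeq2 (version 1.42.0), blocks, sex, the other label of 1 mouse, only the groups compared, and each mouse left out. The fit with sex left out the mouse with no sex label.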

Additional observations from a re-analysis of the deposited data

Results flagged for a closer look

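In 2 of the 36 groups of member values checked, both for *Prodh*, 1 mouse stood far from the others of its group, and chance gives about 1 such group in 20. In fed NT-/- mice, replicate 1 had 51.0 CPM against 40.5 to 41.8 CPM in the other 3, a gap of 0.873 of the group's range. In fasted NT+/+ mice, replicate 3 had 87.7 CPM against 47.2 to 57.5 CPM in the other 4, a gap of 0.747 of the range. Without the first mouse the log2 difference of *Prodh* between genotypes in fed mice was -0.12 in place of -0.04, and without the second its fasting effect in NT+/+ mice was 0.18 (edgeR adjusted p = 0.276) in place of 0.38.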

How the results depend on the processing

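*Cps1* and *Arg2* (fasting, both genotypes) and *Ass1* (fasting, NT-/-) kept their direction and their call under all 10 alternatives and all 19 fits without 1 mouse. With the file-name replicate block, 4 of the 9 genes were called with fasting in NT+/+ and 5 in NT-/- mice (30.7% and 31.7% of all genes tested), and with the title block 5 in NT-/- mice (31.6%). DESeq2 called 3 genes of all tested between genotypes in fed mice and 101 in fasted mice, 1 of them among the 9 (*Arg2*), against 1 in each by edgeR. With at least 10 counts in every library, or the mouse of disagreeing labels placed in NT-/-, 0 genes were called in either diet. *Nts*, the only gene called by edgeR in each diet, had 3 to 14 counts in fed and 3 to 15 in fasted NT-/- mice. The filter of 10 counts therefore left *Nts* out. The mouse of disagreeing labels had 5.43 CPM of *Nts*. With CPM in place of TPM, 22 of 36 ranks were kept. The causes of the other changes were not tested. Without 1 mouse, 3022 to 3973 genes were called with fasting in NT+/+, 3442 to 4757 in NT-/-, and 1 to 4 between fasted genotypes, and 2 to 3 and 3 to 4 of the 9 genes with fasting. The block changed no call of the 9 genes between genotypes within a diet.

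Only uncalled values near 0 changed sign. The fit with sex also left out the mouse with no sex label, a fasted NT-/- mouse, so its values differ by both changes. *Asl* with fasting in NT-/- mice was -0.005 with no filter, -5e-04 with the title block and -0.0416 with sex. Between fed genotypes the file-name block gave -0.0051 for *Cps1* and 0.0544 for *Prodh*. Between fasted genotypes *Aldh18a1* was 0.0083 by RLE, 0.0085 by DESeq2 and 0.0118 with the other label, *Asl* was -0.0047 by upper quartile and -0.0483 with sex, *Nags* was -0.0083 with sex, and *Oat* was -0.0379 with sex and -0.0309 with the other label. The *Otc* difference in fasting effect was -0.0074 with sex.

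Without 1 mouse, log2 values that crossed 0 ranged, with fasting in NT-/-, from -0.0504 to 0.066 for *Asl* and -0.0991 to 0.0301 for *Nags*. Between fed genotypes they ranged from -0.0181 to 0.109 for *Cps1* and -0.0653 to 0.1715 for *Ass1*. Between fasted genotypes they ranged from -0.1347 to 0.0496 for *Cps1*, -0.0569 to 0.059 for *Asl*, -0.0867 to 0.0454 for *Aldh18a1*, -0.0993 to 0.1876 for *Oat* and -0.2028 to 0.0787 for *Prodh*. For the difference in fasting effect they ranged from -0.17 to 0.018 for *Cps1*, -0.0099 to 0.0894 for *Otc*, -0.0983 to 0.0581 for *Arg2*, -0.2649 to 0.0224 for *Oat* and -0.1666 to 0.1145 for *Prodh*. *Ass1* had the fewest counts of the 9 genes, 53 to 424 per mouse.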
